A study of Mus musculus with 6 samples.

Results

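The transcripts described here encode the enzymes of lower glycolysis that follow phosphoglycerate kinase, namely the phosphoglycerate mutases Pgam1 and Pgam2, the enolases Eno1 and Eno3 and the muscle-type pyruvate kinase Pkm. These 5 genes were taken by symbol from a table of 15118 genes, each symbol matched a single row, and all 5 were among the 13080 genes tested. RNA-seq had been done on 6 whole mouse hearts of the Black-Swiss strain at embryonic stage E12.5. The 3 Hif1a mutant hearts (numbers 5, 8 and 10) had the genotype NKX2-5 Cre/WT with Hif1a Null/flox, and the 3 control hearts (numbers 2, 5 and 9) had NKX2-5 Cre/WT with Hif1a WT/flox. Every heart, control hearts included, thus carried a Cre allele of NKX2-5 and a loxP-flanked Hif1a allele, and the genotypes differ in whether the other Hif1a allele is null or wild type. Cre driven from this locus acts in cardiac progenitors and heart muscle, so the cells of a whole heart that never expressed Cre kept the alleles they were born with. Values are RPKM, reads scaled to exon length and library size, and are given as the mean ± SD of 3 hearts. Log2 changes are mutant minus control on log2(RPKM + 1), with a limma standard error (SE), and a gene is said to rise or fall where its Benjamini-Hochberg adjusted p over all tested genes is under 0.05.

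Lower glycolysis turns 3-phosphoglycerate into pyruvate. Phosphoglycerate mutase moves the phosphate to give 2-phosphoglycerate, enolase removes water to give phosphoenolpyruvate, and pyruvate kinase passes the phosphate to ADP, which yields ATP. Mutase and enolase work as dimers of subunits encoded by separate genes. Pgam1 and Eno1 are expressed in most tissues and in the embryo, while Pgam2 and Eno3 encode the subunits that become abundant as heart and skeletal muscle mature. Pkm gives the M1 or M2 form of pyruvate kinase, depending on which of a pair of alternative exons is spliced in. Eno1, Pgam1 and Pkm are among the glycolytic genes known as targets of HIF1, the oxygen-regulated transcription factor whose alpha subunit Hif1a encodes.

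The libraries were deep, and none stood alone by its correlation with the rest. The steps between low values imply 100500000 to 157400000 reads per library, the best fits within a limited range of depths. Smaller depths were not searched and are not excluded. The hearts correlated between 0.967 and 0.994 over tested genes. A first principal component with 45.3% of the variance had control 2 and mutant 8 at its extremes and placed mutant 5 between controls 5 and 9. Control 9 and mutant 8 had summed RPKM of 3 chromosome Y genes near 0, unlike the other hearts. Hif1a itself measured 69.5 ± 12.6 RPKM in mutant and 51.3 ± 8.54 RPKM in control hearts, with a log2 change of 0.43 ± 0.16 SE that did not pass (limma adjusted p = 0.36). Which exons are lost is not stated in the labels, and the deletion therefore cannot be read from that value. The p-values weigh the difference between genotypes against the spread within genotypes. Since the labels say no more than that the hearts are separate samples, they apply to these 6 hearts only.

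The promoters of the members fall into different base compositions. They are shown because HIF1 binds the core ACGTG or GCGTG of hypoxia response elements, and because MEF2 factors, which drive many muscle genes, bind an AT-rich 10-base motif. The sequences below are the 250 bases before the RefSeq transcript start on the strand of the gene (build GRCm38.p6, the assembly of mm10), written 5′ to 3′, with matches to either HIF1 core or to the MEF2 motif in capitals. A match on the opposite strand reads CACGT or CACGC. The windows are chr19:41911621-41911870 (plus strand) for Pgam1, chr11:5803797-5804046 (minus strand) for Pgam2, chr4:150236947-150237196 (plus) for Eno1, chr11:70656926-70657175 (plus) for Eno3 and chr9:59656977-59657226 (plus) for Pkm.
Pgam1: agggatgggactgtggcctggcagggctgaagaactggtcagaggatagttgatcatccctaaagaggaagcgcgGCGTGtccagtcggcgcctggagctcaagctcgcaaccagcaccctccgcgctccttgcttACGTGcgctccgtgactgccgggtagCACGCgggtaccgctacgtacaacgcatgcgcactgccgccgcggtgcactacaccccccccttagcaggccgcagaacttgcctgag
Eno1: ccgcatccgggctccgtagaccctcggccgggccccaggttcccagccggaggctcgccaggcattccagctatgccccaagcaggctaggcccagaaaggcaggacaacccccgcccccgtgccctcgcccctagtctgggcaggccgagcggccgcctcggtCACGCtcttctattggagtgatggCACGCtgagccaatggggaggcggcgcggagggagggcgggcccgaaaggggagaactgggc
Pkm: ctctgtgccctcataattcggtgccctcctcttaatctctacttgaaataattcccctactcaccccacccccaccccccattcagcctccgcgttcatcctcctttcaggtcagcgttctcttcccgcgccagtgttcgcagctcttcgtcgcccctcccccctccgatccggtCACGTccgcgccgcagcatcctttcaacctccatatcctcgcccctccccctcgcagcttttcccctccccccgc
Pgam2: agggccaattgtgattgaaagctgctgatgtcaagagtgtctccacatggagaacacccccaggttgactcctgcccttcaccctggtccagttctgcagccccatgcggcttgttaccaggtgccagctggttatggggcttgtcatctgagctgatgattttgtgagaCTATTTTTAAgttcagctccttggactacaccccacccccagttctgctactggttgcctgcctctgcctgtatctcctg
Eno3: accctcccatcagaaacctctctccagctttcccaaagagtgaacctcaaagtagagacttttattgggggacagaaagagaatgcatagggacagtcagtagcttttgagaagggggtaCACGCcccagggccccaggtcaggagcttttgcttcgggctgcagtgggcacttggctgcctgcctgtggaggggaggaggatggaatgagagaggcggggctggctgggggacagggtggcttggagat

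The Pgam1 window held 3 matches to ACGTG or GCGTG, beginning 175, 114 and 88 bases before the start. Among 32851 RefSeq windows of this length (27025 genes), 38.6% held at least 1 match on either strand and 6.58% held 3 or more. The Eno1 window held 2 matches to GCGTG, 86 and 62 bases before the start. RefSeq gives Eno1 a start 27 bases further on, whose window holds the same 2 matches, and an upstream start whose window holds 1 match. The Pkm window shown held a single ACGTG 75 bases before the start, and the window of its other start, chr9:59656326-59656575, held none. The Eno3 window held a single GCGTG 130 bases before the start, and the Pgam2 window held neither core. Taken alone, ACGTG was in 16.6% and GCGTG in 28.2% of all windows. The Pgam2 window held 1 match to the MEF2 motif, 80 bases before the start, as 2.92% of all windows did, and the other 4 windows shown held none. No member window held CACGTG, the E-box that contains ACGTG (6.02% of all windows). CG dinucleotides made up 8.8%, 8.4% and 7.2% of the dinucleotides in the Pgam1, Eno1 and Pkm windows shown, against 0.4% in the Pgam2 window and 1.2% in the Eno3 window. The upstream Eno1 window had 3.6%, the Eno1 window 27 bases further on 7.6% and the other Pkm window 8.4%. Both core motifs contain a CG, and they are rarer by composition in windows with few CGs. In the GENCODE annotation no coding transcript of Pgam1 or Pgam2 starts within 50 bases of the RefSeq start used, so their distances hold for the RefSeq starts only. These letter matches are a description of the windows and say nothing about binding.

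The 3 widely expressed members were lower in every mutant heart than in every control heart, and the muscle isoforms were not. Eno1 and Pkm passed the test, Pgam1 did not, and Pgam2 and Eno3 had positive log2 changes that did not pass. Thus 2 of 5 members fell and none rose, where 0.398% of all tested genes fell, 0.42% rose and 0.818% passed in either direction (limma). The genotypes did not overlap for 3 of 5 members, all lower in mutant hearts, where 9.43% of tested genes were lower without overlap, 7.6% were higher and 17% were either. By full exon length, these depths imply 16400 reads for the lowest member in any heart (Pgam2). That gives a counting error of about 0.011 on the log2 scale, against an SD of 0.10 to 0.19 within genotypes. If the authors scaled to shorter lengths, or if the depths were smaller, the reads would be fewer and the counting error larger. The exons listed for each gene in the table were not used for this estimate. By this estimate the differences between hearts of a genotype are larger than counting error.

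**Figure D1:**
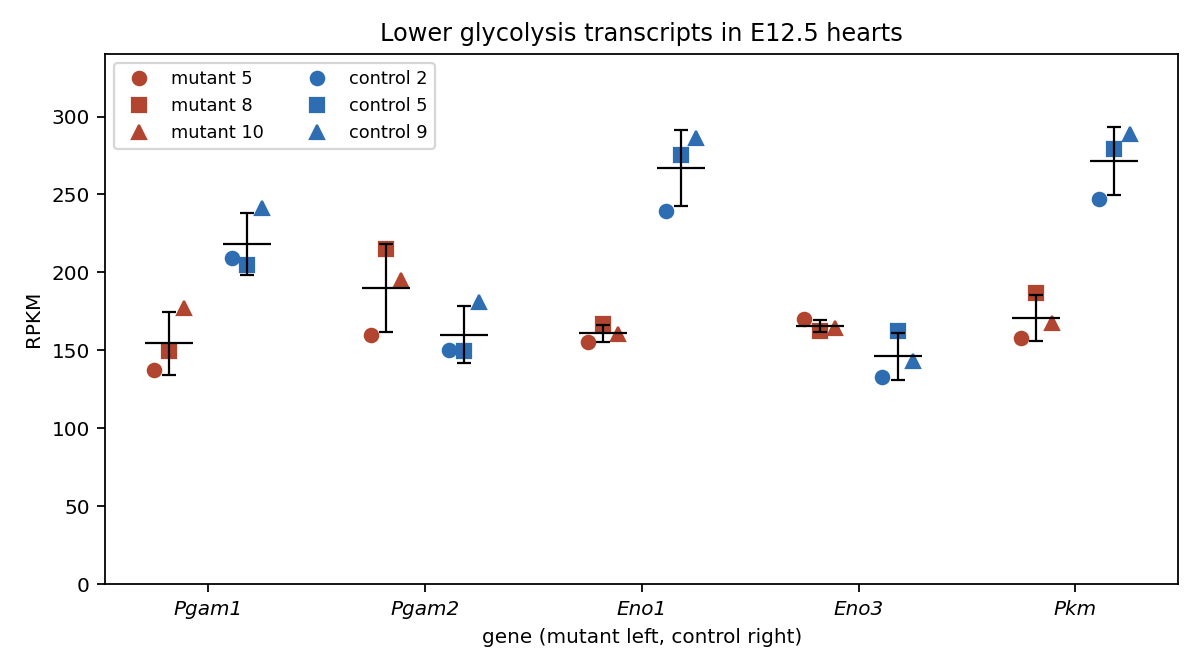
RPKM of the 5 members in each heart (vertical axis, linear from 0), mutant hearts on the left and control hearts on the right of each gene, with the mean and SD of 3 hearts in black. Eno1 lies between 155 and 167 RPKM in mutant hearts, below the 239.5 RPKM of the lowest control heart, while the genotypes overlap for Pgam2 and Eno3.

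The order of the 5 levels differed between genotypes. In mutant hearts the means ran from Pgam2 (190.0 RPKM) through Pkm (171), Eno3 (166) and Eno1 (161) to Pgam1 (155), and each neighbour in that order overlapped the next. In control hearts they ran from Pkm (272 RPKM) through Eno1 (267), Pgam1 (218) and Pgam2 (160) to Eno3 (146). There the muscle isoforms lay below all widely expressed members. The sole neighbours whose control values did not overlap were Pgam1, with 205 RPKM at the lowest, and Pgam2, with 181 RPKM at the highest. RPKM is scaled to length, and the order between genes depends on the exon lengths that the authors used. The table lists exons for each gene, and their lengths were not compared with the full exon lengths used here. The place of Eno1 also depends on how reads shared with its near-identical copy Gm5506 were counted. The places of Pgam1 and Pkm may likewise depend on reads shared with their pseudogene copies, described below. Eno1 and Gm5506 summed measured 259.6 to 293 RPKM in mutant and 399.8 to 474 RPKM in control hearts, and that sum stood first in both genotypes.

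Pgam1 (ENSMUSG00000011752, mm10 chromosome 19, 41911923 to 41918660, plus strand) encodes the widely expressed mutase subunit. It measured 137, 150 and 177 RPKM in mutants 5, 8 and 10, against 209, 205 and 241 RPKM in controls 2, 5 and 9. The highest mutant heart lay below the lowest control heart. The means were 155 ± 20.3 RPKM in mutant and 218 ± 20.0 RPKM in control hearts, a log2 change of −0.50 ± 0.12 SE that did not pass over all genes (limma adjusted p = 0.125, unadjusted p = 0.0023). Its 95% interval ran from −0.77 to −0.23, and the adjusted p ranged from 0.082 to 0.56 over 17 alternative settings, none of which gave a call.

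Pgam2 (ENSMUSG00000020475, chromosome 11, 5801640 to 5803733, minus strand) encodes the muscle mutase subunit and had the highest mean of the members in mutant hearts when Eno1 was taken without Gm5506. It measured 160, 215 and 195 RPKM in mutants 5, 8 and 10, against 150.0, 149.5 and 181 RPKM in controls 2, 5 and 9. Mutants 8 and 10 lay above all control hearts and mutant 5 lay among them. The log2 change was 0.24 ± 0.13 SE, with a 95% interval from −0.06 to 0.54 (limma adjusted p = 0.54). It was 0.10 without control 2 and mutant 8 together, the extremes of the first component, and 0.36 without mutant 5, with no call in either case.

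Eno1 (ENSMUSG00000063524, chromosome 4, 150236721 to 150248879, plus strand) encodes alpha-enolase and had the largest change of the 5. It measured 155, 167 and 161 RPKM in mutants 5, 8 and 10, against 239.5, 275 and 286.5 RPKM in controls 2, 5 and 9. The mutant hearts were close together and far below the control hearts. Eno1 fell by 39.7% in mean RPKM, to 161 ± 5.65 RPKM in mutant hearts, against 267 ± 24.6 RPKM in control hearts, with a log2 change of −0.72 ± 0.10 SE (limma adjusted p = 0.012). That change stayed between −0.80 and −0.67 when any single heart was left out, but the adjusted p was 0.073 without mutant 10, 0.092 without control 5 and 0.058 without control 9, in tests with fewer hearts. Among the 4 hearts that express chromosome Y genes it was 0.096 at a log2 change of −0.70.

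Reads of Eno1 cannot be fully told from those of near-identical copies in the genome. The retrogene Gm5506 (named Eno1b in GENCODE) differs from Eno1 at 8 of 1305 coding bases, with identical runs of up to 725 bases, and the processed pseudogene Gm4735 matches it at 99.6% of bases. Gm5506 measured 114 ± 11.45 RPKM in mutant and 177 ± 14.8 RPKM in control hearts and fell with a log2 change of −0.64 (limma adjusted p = 0.034). Gm4735 measured 10.4 RPKM in mutant and 16.0 RPKM in control hearts (log2 change −0.57, adjusted p = 0.044). The sources used here do not say how reads aligning to several places were counted, so the calls of Gm5506 and Gm4735 may not be separate from that of Eno1. With Gm5506 added to Eno1, the fit gave the sum a log2 change past the threshold as well (adjusted p = 0.019). The coding sequence of Pgam1 is matched over its whole length at 100% by the processed pseudogene Pgam1-ps2, and GENCODE holds 3 copies of Pgam1 and 4 of Pkm with at least 90% identity, which were not analysed here. No such copy was found for Pgam2 or Eno3. Coding sequences of Pgam1 and Pgam2 are 74.5% identical and those of Eno1 and Eno3 76.7%, with shared runs of at most 28 and 20 bases.

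Eno3 (ENSMUSG00000060600, chromosome 11, 70657202 to 70662513, plus strand) encodes beta-enolase of muscle. It measured 170.0, 162.5 and 164 RPKM in mutants 5, 8 and 10, against 133, 163 and 143 RPKM in controls 2, 5 and 9. Control 5 lay level with mutant 8, so the genotypes overlapped. The means were 166 ± 3.87 RPKM in mutant and 146 ± 15.2 RPKM in control hearts (log2 change 0.18 ± 0.10 SE, 95% interval −0.04 to 0.41, limma adjusted p = 0.53).

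Pkm (ENSMUSG00000032294, chromosome 9, 59656368 to 59679375, plus strand) encodes the muscle-type pyruvate kinase, which despite its name is the main form in most embryonic tissues. It measured 158, 187 and 167 RPKM in mutants 5, 8 and 10, against 247, 279 and 288.5 RPKM in controls 2, 5 and 9. Every mutant heart lay below every control heart. Pkm fell by 37.1% in mean RPKM, to 171 ± 14.9 RPKM in mutant hearts, against 272 ± 21.6 RPKM in control hearts, with a log2 change of −0.67 ± 0.10 SE (limma adjusted p = 0.024). It kept a log2 change between −0.73 and −0.61 without any single heart, with an adjusted p of 0.14 without mutant 10, 0.16 without control 5 and 0.11 without control 9. The adjusted p was 0.067 after median centring and 0.096 among the 4 hearts that express chromosome Y genes. The alternative exons of 167 bases that give the M1 form (59675029 to 59675195) and the M2 form (59675568 to 59675734) are both among the exons listed for the gene in the table. The Pkm value is therefore a sum over both forms, and their ratio cannot be read from it. GENCODE places Gm49759 on the same strand over 767 of the 5001 exon bases of Pkm, and reads there cannot be assigned to either gene.

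The ratio of the widely expressed to the muscle isoform did not overlap between genotypes in either enzyme pair. Each ratio is made from the member values given above and is not separate from them. Taken alone, Pgam2 and Eno3 each overlapped between genotypes. The Pgam1 to Pgam2 ratio was 0.858, 0.696 and 0.908 in mutants 5, 8 and 10, against 1.39, 1.37 and 1.33 in controls 2, 5 and 9. As measured, Pgam2 was the more abundant subunit transcript in all 3 mutant hearts and Pgam1 in all 3 control hearts. How reads shared with the pseudogene Pgam1-ps2 were counted is not known, and the order in mutant hearts may depend on it. In both enzyme pairs, which isoform measured higher also depends on the exon lengths that the authors used. On the log2 scale the ratio averaged −0.29 ± 0.20 in mutant and 0.45 ± 0.03 in control hearts, a difference of −0.74 ± 0.12 SE (exact permutation test, two-sided p = 0.1, the smallest that 3 against 3 allows). For ratios the SE comes from the pooled SD within genotypes, not from limma. The Eno1 to Eno3 ratio was 0.914, 1.03 and 0.978 in mutants 5, 8 and 10, against 1.80, 1.69 and 2.00 in controls 2, 5 and 9. By these values the enolase transcripts were about level in mutant hearts, and Eno1 exceeded Eno3 in each control heart. With the retrogene Gm5506 added to Eno1, the ratio was 1.53, 1.80 and 1.65 in mutants 5, 8 and 10, against 3.01, 2.82 and 3.32 in controls 2, 5 and 9, so the level ratio in mutant hearts depends on leaving it out. Without the retrogene the log2 ratio averaged −0.04 ± 0.08 in mutant and 0.87 ± 0.12 in control hearts, a difference of −0.91 ± 0.09 SE (exact permutation test, p = 0.1). With the retrogene added to Eno1 the difference was −0.88, and with any single heart left out it lay between −0.97 and −0.85 for enolase and between −0.82 and −0.63 for mutase. A ratio within a heart does not depend on how that library was scaled.

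**Figure D2:**
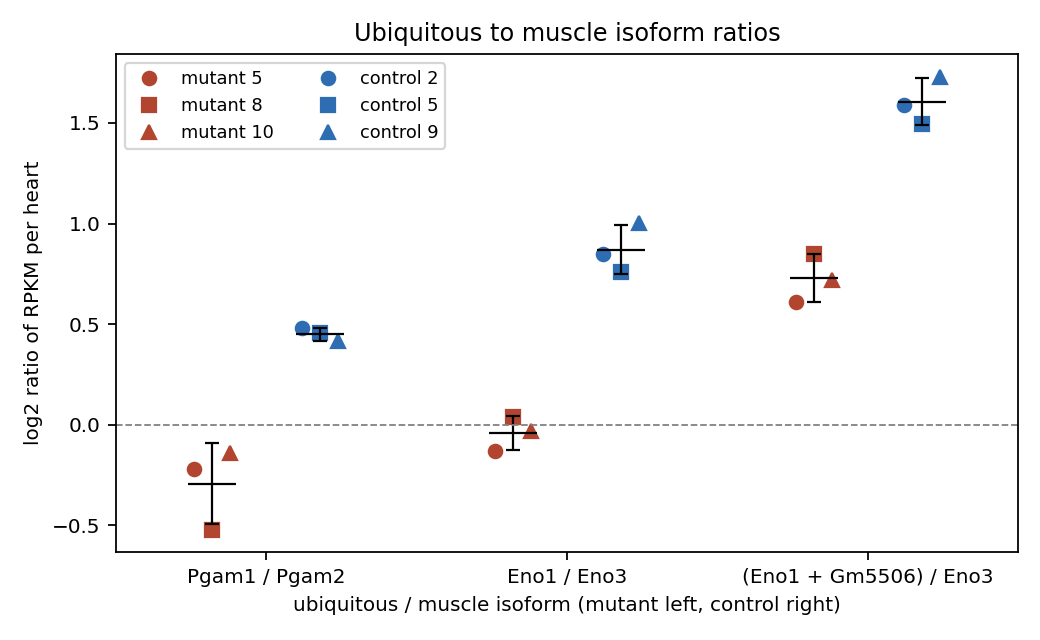
Log2 ratio of the widely expressed to the muscle isoform in each heart (vertical axis), mutant hearts on the left and control hearts on the right, with the mean and SD of 3 hearts in black and a dashed line at equal levels. All 3 mutant hearts lie below all 3 control hearts in each ratio, with Pgam1 to Pgam2 at 0.696 to 0.908 in mutant and 1.33 to 1.39 in control hearts before taking logs.

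Summed over isoforms, the mutases overlapped between genotypes and the enolases did not. Pgam1 and Pgam2 together measured 297, 365 and 372 RPKM in mutants 5, 8 and 10, against 359, 354 and 422.5 RPKM in controls 2, 5 and 9 (exact permutation test, p = 0.6). Pgam2 made up 55.1% ± 3.44 of that sum in mutant and 42.3% ± 0.548 in control hearts. The sum and the share may both depend on how reads shared with Pgam1-ps2 were counted. Eno1 and Eno3 together measured 325, 329 and 325 RPKM in mutants 5, 8 and 10, against 372, 438 and 429.5 RPKM in controls 2, 5 and 9 (exact permutation test, p = 0.1). Eno3 made up 50.7% ± 1.44 of that sum in mutant and 35.4% ± 1.94 in control hearts, and 37.7% in mutant and 24.8% in control hearts when the retrogene was counted in.

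**Figure D3:**
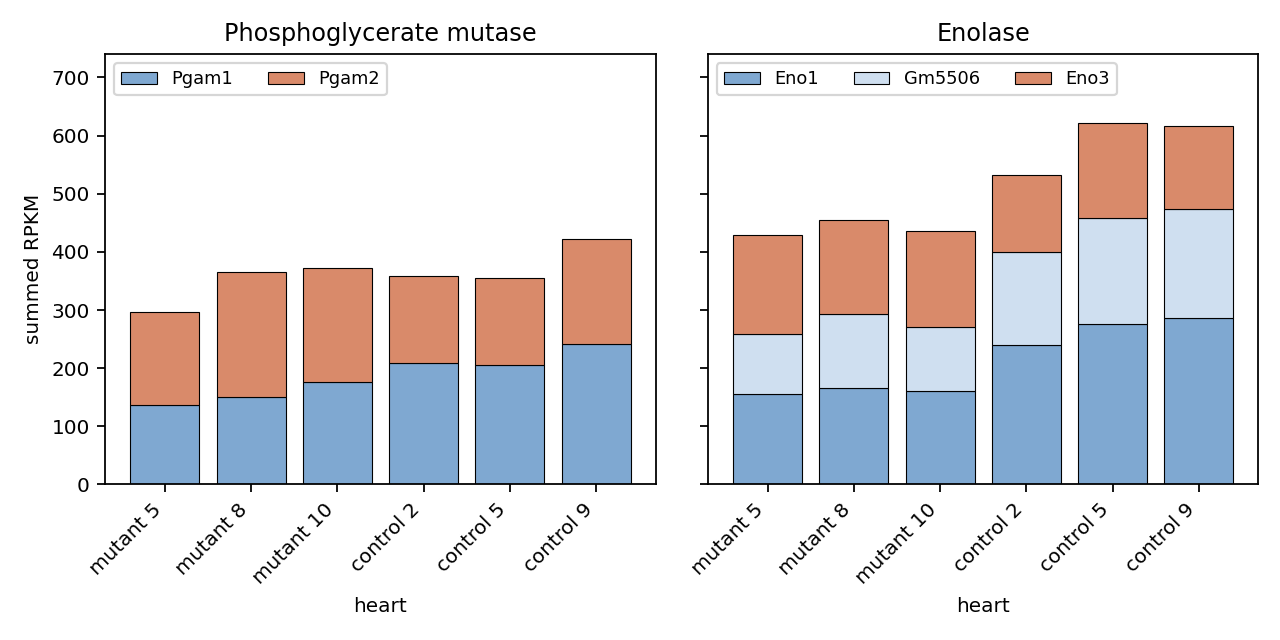
Summed RPKM of the mutase transcripts (left panel) and the enolase transcripts with the Eno1 retrogene Gm5506 (right panel) in each heart, stacked by gene, mutant hearts first. The enolase stack is shorter in each mutant heart (429.6 to 456 RPKM) than in each control heart (533 to 621.5 RPKM), while the mutase stacks overlap (297 to 372 RPKM in mutant and 354 to 422.5 RPKM in control hearts).

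Summed markers of some cell types other than heart muscle were lower in each mutant heart than in each control heart. No single marker of any type passed in limma. The 6 epicardial and mesenchymal markers summed to 155 to 233 RPKM in mutant and 272 to 296 RPKM in control hearts. Most of that sum came from the matrix genes Col1a1, Col1a2 and Postn, of which Postn overlapped between genotypes (log2 change −0.58) and the others did not. The epicardial markers Wt1, Tbx18 and Tcf21 each overlapped as well (log2 changes of −0.13, −0.25 and −0.22). The 5 endothelial markers summed to 54.3 to 62.1 RPKM in mutant and 65.1 to 75.7 RPKM in control hearts. Of these, Pecam1 and Tek overlapped between genotypes. Cdh5, Cldn5 and Kdr were lower without overlap, as 9.43% of all tested genes were. Of 6 macrophage markers 5 were measured, summing to 6.60 to 14.7 RPKM in mutant and 19.9 to 22.3 RPKM in control hearts. The 7 cardiomyocyte markers summed to 11710 to 13520 RPKM in mutant and 10590 to 12350 RPKM in control hearts, which overlap. Their median log2 change was 0.15. Actc1 (0.27) and Myl7 (0.42) were higher in each mutant heart than in each control heart, as 7.6% of all tested genes were. Tnnt2 (−0.05), Myh7 (−0.05), Myh6 (0.15), Nkx2-5 (0.33) and Tnni1 (0.07) overlapped. Of 7 skeletal muscle markers only Mylpf and Actn3 were measured, with sums of 24.4 to 37.4 RPKM in mutant and 18.4 to 30.6 RPKM in control hearts, which overlap as well, and Myod1, Myog, Myf5, Pax7 and Myh3 were not analysed here. Neural, erythroid and liver marker sums also overlapped between genotypes. The part of these cell types in the member and ratio differences was not tested. In whole hearts, fewer cells of a type and less RNA per cell cannot be told apart.

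Some other enzymes of glycolysis fell as well. Of 23 genes listed, 17 were in the table and 15 were tested. Of these 5 fell and none rose, where 0.398% of all tested genes fell and 0.42% rose. At an unadjusted limma p under 0.05, 9 of the 15 were lower and none higher, where 6.26% of all tested genes were lower and 4.92% higher. The list had a median log2 change of −0.40, against −0.03 over all tested genes. By sign alone 12 of the 15 were negative, where 57.4% of all tested genes were. The 3 with positive log2 changes were Hk1 (0.26), Pfkm (0.07) and Ldhb (0.06). Phosphoglycerate kinase Pgk1, which makes the substrate of the mutases, measured 294 ± 34.4 RPKM in mutant and 619 ± 22.5 RPKM in control hearts (log2 change −1.08, limma adjusted p = 0.0021). Lactate dehydrogenase Ldha, which uses the pyruvate made by Pkm, measured 216 RPKM in mutant and 565 RPKM in control hearts (log2 change −1.38, adjusted p = 0.00023). Triosephosphate isomerase Tpi1 (−0.89), the liver-type phosphofructokinase Pfkl (−1.44) and the brain-type aldolase Aldoc (−1.37) were the others that fell, Tpi1 not among the 4 hearts that express chromosome Y genes. Aldoc had low levels, 1.35 RPKM in mutant and 5.05 RPKM in control hearts, and was not among the calls with a minimum of 5 RPKM. Aldoa, the aldolase of muscle and embryo, had a log2 change of −0.62 (adjusted p = 0.063) and passed under 5 of the alternatives.

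Beside the Eno1 copies described above, the other measured family members had lower levels than the 5 members. Eno2, the neuronal enolase, measured 2.66 RPKM in mutant and 3.10 RPKM in control hearts, and Bpgm, the bisphosphoglycerate mutase of red cells, 12.45 RPKM in mutant and 14.2 RPKM in control hearts, neither past the threshold (limma adjusted p = 0.81 and 0.62). Eno4 and the liver and red cell pyruvate kinase Pklr were not analysed here.

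**Figure D4:**
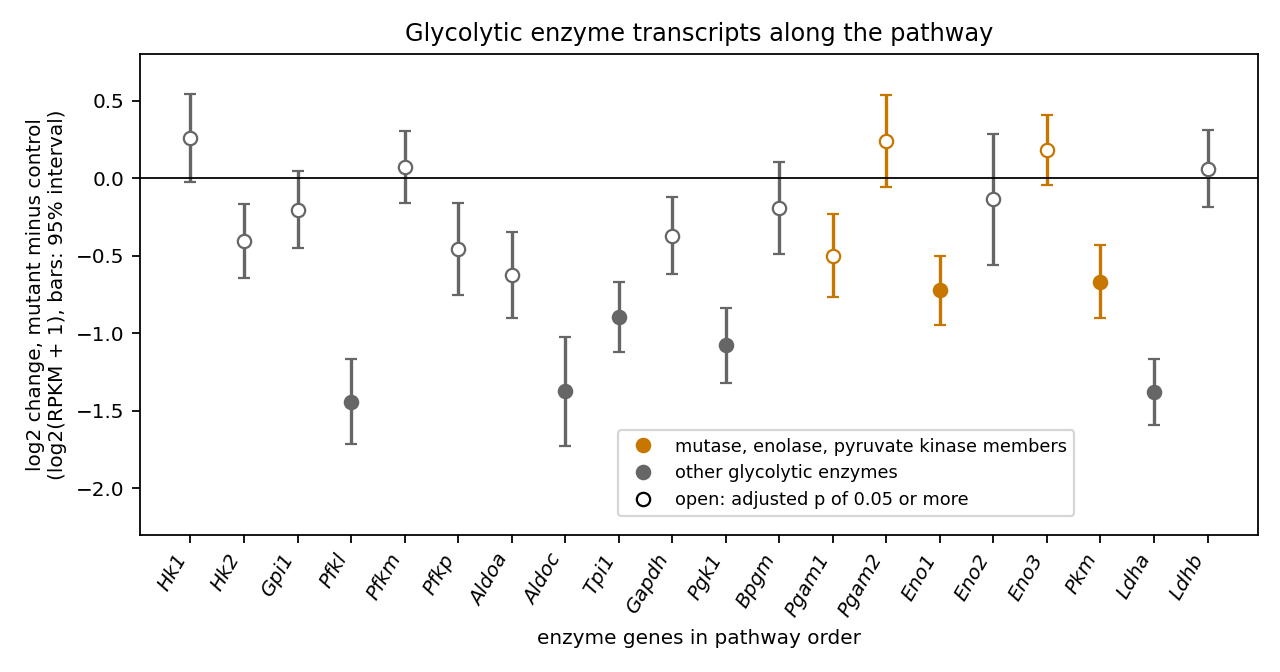
Log2 change, mutant minus control, on log2(RPKM + 1) with its 95% limma interval (vertical axis) for the 5 members (orange) and 15 other tested glycolytic enzymes (grey) in pathway order, filled where the adjusted p is under 0.05. Eno1 (−0.72) and Pkm (−0.67) are filled and lie below 0, Pgam1 (−0.50) is open and below 0, and Pgam2 (0.24) and Eno3 (0.18) are open and above 0.

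Of the genes that use or supply the metabolites of these steps, Phgdh and Pck2 rose. Of 9 tested genes of the branches at 3-phosphoglycerate, phosphoenolpyruvate and pyruvate, 2 rose and none fell, where 0.42% of all tested genes rose and 0.398% fell. At an unadjusted limma p under 0.05, 4 were higher and none lower, where 4.92% of all tested genes were higher and 6.26% lower, and the median log2 change was 0.19. Phgdh, which diverts 3-phosphoglycerate into serine synthesis ahead of the mutase step, measured 70.7 ± 2.76 RPKM in mutant and 32.2 ± 1.58 RPKM in control hearts (log2 change 1.11, limma adjusted p = 0.00056). Pck2, which makes phosphoenolpyruvate from oxaloacetate in mitochondria, measured 12.51 ± 0.898 RPKM in mutant and 7.02 ± 0.865 RPKM in control hearts (log2 change 0.755, adjusted p = 0.017). Without mutant 10 or without control 5, as among the 4 hearts that express chromosome Y genes, Phgdh alone of the branch genes passed. The later serine synthesis genes Psat1 (log2 change 0.47, adjusted p = 0.061) and Psph (0.45, adjusted p = 0.155) did not pass, though Psat1 did with median centring, with a minimum of 5 RPKM and among protein-coding genes alone.

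Factors known to affect the splicing of the alternative exons of Pkm had a median log2 change of −0.10. None of 9 tested factors passed in limma and none had an unadjusted p under 0.05, where 0.818% and 11.2% of all tested genes did, so a count of 0 is near the background. The polypyrimidine tract protein Ptbp1, which represses the M1 exon, measured 51.4 ± 2.20 RPKM in mutant and 54.4 ± 5.33 RPKM in control hearts (95% interval of the log2 change −0.30 to 0.15). Its partner Hnrnpa1 measured 314.5 RPKM in mutant and 338 RPKM in control hearts (interval −0.34 to 0.12). The factors with the smallest p were Khdrbs1 (log2 change −0.18), Ptbp3 (−0.25), Hnrnpa1 (−0.11) and the kinase Nek2 (−0.09), with adjusted p of 0.495 to 0.76.

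Muscle-type energy metabolism genes had log2 changes of both signs. None of 10 tested genes passed in limma, which is near the 0.818% of all tested genes. At an unadjusted p under 0.05, 2 were lower and 1 was higher, where 11.2% of all tested genes were past it in either direction. The median log2 change was 0.08. Muscle creatine kinase Ckm measured 25.0 ± 4.67 RPKM in mutant and 40.0 ± 5.61 RPKM in control hearts (log2 change −0.665, adjusted p = 0.105) and myoglobin Mb 84.5 RPKM in mutant and 127 RPKM in control hearts (−0.61, adjusted p = 0.16). Both were past the threshold without mutant 5. The heart and muscle cytochrome oxidase subunit Cox6a2 measured 144 RPKM in mutant and 118 RPKM in control hearts (0.28, adjusted p = 0.36), and the muscle glucose transporter Slc2a4 measured 6.996 RPKM in mutant and 5.74 RPKM in control hearts (0.255, adjusted p = 0.47). The muscle-type phosphofructokinase Pfkm, the counterpart of Pgam2 and Eno3 higher in the pathway, measured 39.6 RPKM in mutant and 37.7 RPKM in control hearts (0.07, adjusted p = 0.82).

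Each member was compared with other genes across the 6 hearts. Pearson correlations of log2 values were taken against 8136 other genes and are given as a description, since genotype and library are shared by all values. Eno1 was most like the lactate exporter Slc16a3 (r = 0.9993), the phosphofructokinase Pfkl (0.9987) and Prelid1 (0.9964). Pkm was most like Atf7ip (0.9916), Eno1 (0.9915) and the cytokine Mif (0.9910). Pgam1 was most like Fto, Peg10 and Alg9 (0.9812 to 0.9792). Among the muscle isoforms, Eno3 was most like Slc2a4 (0.9940), Rab20 and Nsun4, and Pgam2 most like Bud13, Smco4 and Dcakd (0.9952 to 0.9925). Between members the correlation was 0.991 for Eno1 and Pkm, 0.906 for Pgam1 and Eno1 and 0.893 for Pgam1 and Pkm, whereas Pgam2 and Eno3 correlated at 0.296 with each other and between −0.297 and −0.725 with the widely expressed members.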

How the data were processed

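The labels' protocols describe total RNA of dissected hearts sequenced from Illumina libraries, and per the submitters' processing notes, which give no versions, Trim Galore, TopHat2 and the mm10 build were used. The sources used here do not give the counting tool, annotation release, strandedness or treatment of multiply aligned reads. In the deposited table the authors' RPKM values stand on a linear scale, 1 column a heart. The header names no unit. For single-exon genes, multiplying RPKM by length gave values that were whole multiples of 1 read's worth to within 0.1 read in 86.6% to 94.8% of cases under 15 reads (medians of 18.6% to 20.0% at other steps). No value is 0 and no pair of libraries is identical. Exon lengths, coordinates and transcripts come from GENCODE M21, which held 98.4% of the gene identifiers.

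The limma test (version 3.58.1, R 4.3.3) used log2(RPKM + 1) with the trend option, took genes reaching 1 RPKM in 3 or more libraries, and gave two-sided p-values adjusted over 13080 genes. All 6 hearts entered without covariates. Ratios within a heart were compared by exact permutation in scipy 1.17.1. Members and lists were chosen with earlier results of these data known. All 5 members are named, with every list gene past the threshold, up to 4 others of smallest p per list, paralogues and copies of members, and the 3 genes of highest correlation with each member (mean log2 value of at least 2, without chromosome Y, predicted and non-coding symbols). Gm4735, the sums over isoforms and of Eno1 with Gm5506, and the exclusion of clone-named symbols from the correlations were added after values were seen. Simulated data with known changes were used to test the fit. Copies were sought with BLAST 2.17.0 (at least 90% identity over at least 50% of the longest open reading frame). Promoters are RefSeq windows, and all 5 members had an entry. Alternatives were median centring, rescaling without haemoglobin genes, other filters (none, 5 RPKM), pseudocounts of 0.1 and 5, limma without trend, a robust prior, and leaving out each heart. Further ones, chosen after seeing the data, were 2 sets of 4 hearts, protein-coding genes alone and Eno1 summed with Gm5506.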

Additional observations from a re-analysis of the deposited data

How the results depend on the processing

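All 5 members kept the sign of their log2 change in each alternative run. Eno1 kept its call in 14 of 18 alternatives and Pkm in 12 of 17, and Pgam1, Pgam2 and Eno3 gained none in 17. Without a single heart the log2 change lay between −0.80 and −0.671 for Eno1 and between −0.734 and −0.612 for Pkm. Neither passed among the 4 hearts that express chromosome Y genes (−0.696 and −0.689), nor Pkm after median centring (−0.631). The sets without hearts are smaller tests, and the cause of the centring value was not tested. All tested genes past the threshold numbered 107, between 45 and 198 without a single heart (45 without control 5, 46 without mutant 10, 62 without control 2, 68 without control 9, 198 without mutant 5), and 54 among the 4 hearts that express chromosome Y genes. Higher genes were 51.4% of calls (55 higher, 52 lower), 62.6% with median centring and 40.6% with haemoglobin genes left out of the scaling, while the median log2 change of all genes lay between −0.065 and 0.006 over all settings. The branch genes past the threshold numbered 2, 1 to 2 without a single heart, 1 among the 4 hearts that express chromosome Y genes, and 3, with Psat1, under median centring, a minimum of 5 RPKM and protein-coding genes alone, and the muscle-type genes numbered 0 to 2 without a single heart. Both isoform ratios kept their sign in all alternatives, and 3 against 3 hearts cannot give an exact p under 0.1. No paired analysis was possible because the genotypes share a single sample number.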

Other observations

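Eno1 and Pkm, which lie on different chromosomes, had nearly equal levels in each heart when Gm5506 was left out. With Gm5506 added, Eno1 measured 259.6 to 293 RPKM in mutant and 399.8 to 474 RPKM in control hearts. Pkm measured 158 to 187 RPKM in mutant and 247 to 288.5 RPKM in control hearts, so the near-equality depends on how shared reads were counted. Without Gm5506 the Eno1 to Pkm ratio was 0.891 to 0.984 in mutant and 0.969 to 0.993 in control hearts, which overlap (exact permutation test, two-sided p = 0.2). The Pgam1 to Eno1 ratio was 0.883 to 1.10 in mutant and 0.744 to 0.873 in control hearts, without overlap (p = 0.1, the smallest that an exact permutation test of 3 against 3 allows). The Eno1 to Gm5506 ratio was 1.320 to 1.492 in mutant and 1.494 to 1.526 in control hearts, without overlap but nearly touching (exact permutation test, p = 0.1). These ratios were chosen after the data were seen.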
